A study of Homo sapiens with 6 samples.

Results

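The genes described here are 29 genes of cholesterol and fatty acid synthesis that are known targets or parts of the sterol regulatory element-binding protein (SREBP) system. They were chosen by name from the 19934 gene symbols in the count tables, with earlier results of these data known. They were measured by RNA sequencing in 6 libraries from NCI-H1299 cells, an established human lung carcinoma cell line whose labels give its genotype as WT and its type as lung adenocarcinoma. The study describes H1299 cells as p53-null. Cells were grown in DMEM with 10% FBS and transfected in 2 rounds over 4 days. The siRNA was a control (group si-Ctr), targeted ZBTB11 (group si-ZBTB11) or targeted SET (group si-SET), and each group had 2 biological replicates. ZBTB11 is a zinc finger transcription factor and SET is a histone chaperone that binds it, and the study compared the transcripts that depend on each. All groups received Lipofectamine and an siRNA, so an untransfected baseline was not part of the comparison. The study used 2 oligos against ZBTB11, and the labels do not say which of them a library received. All 29 genes were in the tables and passed edgeR's filter on low counts in each comparison.

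SREBPs are transcription factors held in the membrane of the endoplasmic reticulum by the escort protein SCAP and the retention protein INSIG. When membrane sterol falls, SCAP carries SREBP to the Golgi, where the site-1 and site-2 proteases release the active domain, which binds sterol regulatory elements together with NF-Y, a factor that binds CCAAT boxes. SREBP2 mainly drives the enzymes of cholesterol synthesis and SREBP1 those of fatty acid synthesis, and INSIG1 is itself a target that closes the feedback loop. Lung carcinoma cells, like most proliferating cells, make membrane lipid through both routes even when serum supplies some of it.

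RefSeq promoter windows of the GRCh38.p14 assembly, 250 bases before to 50 bases after a transcription start, were matched for 25 of the 29 genes. No window was matched for ACAT2, FDFT1, SQLE and FASN. Motifs were searched on both strands. The sterol element core TCACNCCAC was found in 1 of the 25 genes, SREBF2, against 1.39% of all 27305 genes with a window. The box CCAAT was found in 20 of the 25, or 80%, against 39.7% of all genes. These 27305 genes include genes not tested here, and motif shares over the tested genes alone were not taken. The box was found in 12 of the 13 genes with a window that were lower after ZBTB11 knockdown and in 8 of the other 12. The gene of the 13 without it was FADS1. CCGGAAG was found in 3 of the 25 (12%, against 12.2% of all genes) and CAGGAAG in FADS1 alone (4%, against 15.1%). Some genes that passed no test also held several boxes: MVK and NSDHL held 5 each, and EBP held 3. A gene was counted as holding a motif if any of its windows did. Windows of HMGCS1, IDI1, DHCR7, ACACA and FADS2 at another start held 0 boxes. IDI1 held CCGGAAG only in that window, at chr10:1056655-1056954, outside its annotated span of chr10:1039152-1049119. These are matches of letters and not measured binding sites. ELOVL6 was the 1 member higher in si-ZBTB11 than in si-SET. It fell after SET knockdown and did not pass the test after ZBTB11 knockdown. The windows below show SREBF2, which holds the sterol element core. They also show HMGCS1, MSMO1 and SCD, which hold more than 1 box and fell after ZBTB11 knockdown, and ELOVL6, with none of the 4 motifs. They lie at chr22:41832855-41833154 on the plus strand, chr5:43313363-43313662 on the minus strand, chr4:165327419-165327718 on the plus strand, chr10:100346983-100347282 on the plus strand and chr4:110198566-110198865 on the minus strand. Each is printed 5′ to 3′ on its gene's strand, and capitals mark a match to TCACNCCAC or CCAAT, where ATTGG is CCAAT on the other strand.
SREBF2: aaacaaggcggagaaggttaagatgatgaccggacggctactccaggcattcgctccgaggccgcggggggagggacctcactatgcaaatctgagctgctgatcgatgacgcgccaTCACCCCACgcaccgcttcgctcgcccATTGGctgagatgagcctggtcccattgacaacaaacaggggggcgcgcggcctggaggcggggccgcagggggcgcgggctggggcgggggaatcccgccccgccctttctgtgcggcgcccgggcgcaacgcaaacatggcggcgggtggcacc
HMGCS1: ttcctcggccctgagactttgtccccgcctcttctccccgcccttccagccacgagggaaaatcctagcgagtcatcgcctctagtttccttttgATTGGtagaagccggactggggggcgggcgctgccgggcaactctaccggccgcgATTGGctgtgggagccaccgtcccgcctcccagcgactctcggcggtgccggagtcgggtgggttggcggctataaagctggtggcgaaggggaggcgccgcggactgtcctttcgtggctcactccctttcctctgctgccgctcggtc
MSMO1: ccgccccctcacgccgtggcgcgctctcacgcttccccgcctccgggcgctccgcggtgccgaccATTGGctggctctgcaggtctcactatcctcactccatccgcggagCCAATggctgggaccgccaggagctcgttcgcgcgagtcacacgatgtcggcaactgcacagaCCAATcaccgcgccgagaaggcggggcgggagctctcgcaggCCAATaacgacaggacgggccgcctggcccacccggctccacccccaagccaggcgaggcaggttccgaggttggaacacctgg
SCD: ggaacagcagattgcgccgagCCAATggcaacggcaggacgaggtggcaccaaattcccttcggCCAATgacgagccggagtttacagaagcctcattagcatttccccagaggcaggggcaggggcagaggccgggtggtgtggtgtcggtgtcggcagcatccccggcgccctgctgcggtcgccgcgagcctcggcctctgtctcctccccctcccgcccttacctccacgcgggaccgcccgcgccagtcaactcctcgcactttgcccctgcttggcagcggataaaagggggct
ELOVL6: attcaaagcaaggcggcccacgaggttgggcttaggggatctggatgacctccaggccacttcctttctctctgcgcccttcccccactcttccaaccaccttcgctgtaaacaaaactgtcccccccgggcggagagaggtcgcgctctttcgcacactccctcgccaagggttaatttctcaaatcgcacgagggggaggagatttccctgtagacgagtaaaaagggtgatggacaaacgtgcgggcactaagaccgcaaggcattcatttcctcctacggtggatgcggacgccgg

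The libraries held 16653115 to 17694522 counts, so 3 counts correspond to 0.169 to 0.179 CPM (read counts relative to library size), a floor that covers counting error only. Levels are given below as CPM after TMM scaling over all 6 libraries. The siRNA targets were checked first. ZBTB11 had 52.9 and 64.3 CPM in si-Ctr, 31.8 and 32.4 in si-ZBTB11 and 47.8 and 41.6 in si-SET. It was lowest in si-ZBTB11, with a log2 fold change against si-Ctr of -0.86 ± 0.078 (SE) and an adjusted p of 4.45e-17, and it was also lower in si-SET (-0.39 ± 0.075, adjusted p = 2.11e-05). SET had 666 and 658 CPM in si-Ctr, 663 and 670.3 in si-ZBTB11 and 58.3 and 60.6 in si-SET, a log2 fold change of -3.48 ± 0.046 in the last (adjusted p = 3.08e-88). Of 10 markers of the line, KRT8, KRT18, VIM and CDH2 were detected well above the floor, while CDH1, EPCAM, NAPSA and SFTPB stayed at or under 0.678 CPM in each library. KRT7 lay between 3.956 and 6.815 CPM and NKX2-1 between 2.145 and 3.585 CPM, low but above the floor. Of 7 markers of blood, liver and endothelial cells, KDR lay between 1.37 and 3.29 CPM and was lower after ZBTB11 knockdown (-0.96 ± 0.32, adjusted p = 0.0209), CD3E had no count in any library and the others were at or under 0.294 CPM. Of the markers of the line, 3 of 6 tested (KRT8, KRT18 and KRT7) fell and VIM rose after ZBTB11 knockdown (all genes tested: 10.5% and 9.94%), and the same 3 of 7 tested fell after SET knockdown (13.9%). KRT8 had log2 fold changes of -0.33 and -0.31. The part of these differences in the results below was not tested.

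Together the 29 genes held 7304 and 7235 CPM in si-Ctr, 7144 and 7326 in si-SET and 6168 and 6264 in si-ZBTB11. Both si-ZBTB11 sums lay below the 4 others, and the si-SET and si-Ctr sums overlapped. SCD alone held 36.9% to 39.5% of these counts. Per kilobase of exon, the level in si-Ctr was highest for SCD, the stearoyl-CoA desaturase that makes oleate, at 538 ± 3.64 CPM per kb (SD, n = 2). FASN, the fatty acid synthase, followed at 105 ± 1.53, and ACLY, which makes cytosolic acetyl-CoA from citrate, at 60.5 ± 0.136. FDFT1, ACAT2 and SQLE came next, from 47.2 down to 41.2 ± 1.87 CPM per kb. LSS and EBP, at 33.8 ± 0.381 and 33.7 ± 1.06, did not differ beyond their spread. At the low end were SC5D at 5.63 ± 0.316, HSD17B7 at 5.45 ± 0.234, MVK at 3.23 ± 0.296, CYP51A1 at 2.69 ± 0.471 and FADS2 at 2.33 ± 0.0516. The spreads of SC5D and HSD17B7 overlapped, as did those of MVK and CYP51A1 and those of CYP51A1 and FADS2. CYP51A1 and EBP share 68.2% and 36.4% of their exon bases with other annotated genes on the same strand. Their levels and ranks are therefore uncertain. With the length of the longest transcript in place of all exons, MVK was at 7.09 and FADS2 at 4.85, and FDFT1 at 97.4 lay above ACLY at 72.9. The order therefore depends on the length used at both ends, while SCD and FASN stayed first and second.

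After ZBTB11 knockdown, the synthesis genes shifted downward by small amounts. Because the set was chosen with earlier results of these data known, the shares in this and the next comparisons are descriptions. Of the 29, 17 were lower than in si-Ctr at an adjusted p under 0.05, where 10.5% of the 13534 genes tested were lower, and 1 (PMVK) was higher, where 9.94% of genes were. The remaining 11 did not pass the test. In all, 22 of the 29 had a log2 fold change below 0, with a median of -0.16 beside 0.0016 over all genes tested. The values ran from -0.54 (HSD17B7) to 0.31 (CYP51A1, not past the test). None reached the study's criteria of an unadjusted p under 0.05 with an absolute log2 fold change over 1, which 1.57% of genes met. Since highly counted genes pass more easily, the share was also taken over the 9476 genes with at least the mean count of CYP51A1, the member with the fewest: 12.2% of them were lower and 12.7% higher, beside 58.6% and 3.45% of the 29. By role, 5 of 7 mevalonate genes, 7 of 11 genes from squalene to cholesterol, the sterol carrier STARD4 and 4 of 7 fatty acid genes fell, and 0 of 3 regulators passed the test in either direction. With the DESeq2 Wald test in place of edgeR, FDPS, TM7SF2, DHCR7, STARD4 and PMVK were not past the threshold, which left 13 lower and 0 higher. In bulk RNA, fewer cells of a kind and less RNA per cell cannot be told apart.

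After SET knockdown, no common shift was seen, and single genes moved both ways. Of the 29, 6 were higher (13.1% of the 13599 genes tested) and 7 lower (13.9%), with 16 not past the test. The median log2 fold change was -0.0034, beside 0.0033 over all genes, with 14 genes above 0 and 15 below. Over the 9448 genes with at least the mean count of CYP51A1, 15.4% were higher and 16.9% lower, beside 20.7% and 24.1% of the 29. The genes at either end were FADS2 (0.54 ± 0.091) and ELOVL6 (-0.38 ± 0.049). None met the study's criteria, which 2.15% of genes met. With the DESeq2 Wald test 4 remained higher and 3 lower, and SREBF1, ACAT2, HMGCS1, FDFT1, FDPS and CYP51A1 were not past the threshold. Leaving out si-Ctr replicate 1 left 2 lower, leaving out si-SET replicate 1 left 4 lower, and leaving out si-SET replicate 2 left 3 higher.

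Set directly against each other, the si-ZBTB11 libraries were lower than the si-SET libraries in 14 of the 29 (8.58% of the 13549 genes tested) and higher in 1, ELOVL6 (9.61%). The other 14 did not pass the test. The log2 fold change was below 0 in 26 of 29, with a median of -0.16 beside -0.0018 over all genes. None met the study's criteria (1.36% of genes). With the DESeq2 Wald test TM7SF2 and HSD17B7 were not past the threshold, which left 12 lower. Among the 9189 genes with at least the mean count of CYP51A1, 10.2% were lower and 12.7% higher, beside 48.3% and 3.45% of the 29. Both knockdowns were compared with the same si-Ctr libraries, so their fold changes against si-Ctr are not independent of each other, and the direct comparison does not use those libraries.

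**Figure D1:**
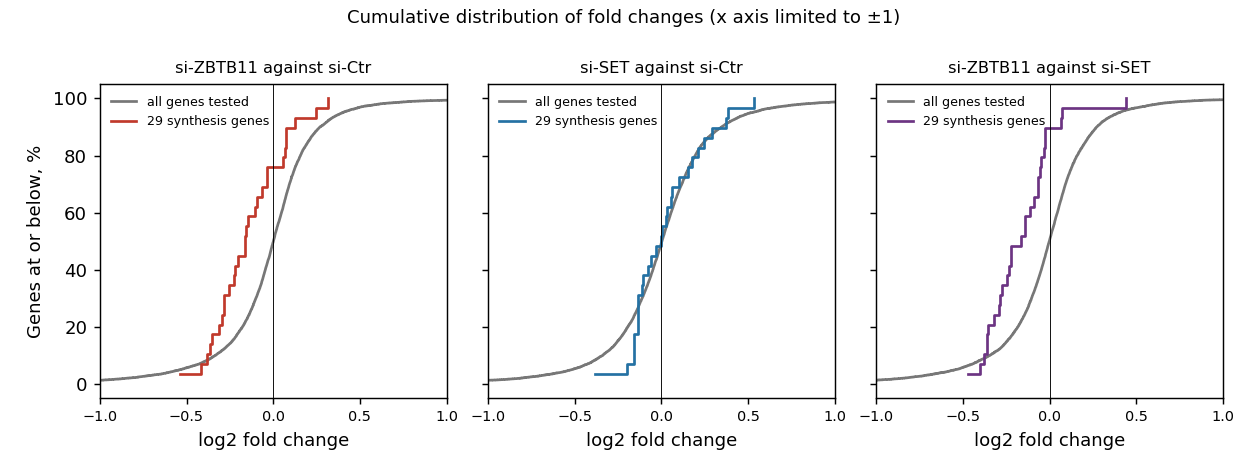
Cumulative share of genes (in %) by log2 fold change for all genes tested (grey) and the 29 synthesis genes (coloured) in the 3 comparisons, with the x axis limited to ±1. The coloured line lies left of the grey one in both comparisons of si-ZBTB11, with medians of -0.16, and follows it for si-SET against si-Ctr, with a median of -0.0034.

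Across the comparisons, 9 of the 29 fell after ZBTB11 knockdown, did not pass the test after SET knockdown and were lower in si-ZBTB11 than in si-SET: MVD, IDI1, SQLE, TM7SF2, MSMO1, HSD17B7, FASN, SCD and FADS1. This pattern of calls was found in 2.61% of the 13372 genes tested in all 3 comparisons. HMGCS1 was lower in each of the 3 (0.374% of genes). FDPS and DHCR7 fell after ZBTB11 knockdown, rose after SET knockdown and were lower directly (0.344%). ACAT2, FDFT1, LSS and ACLY fell after either knockdown and did not pass the direct test (4%). PMVK rose after either and did not pass the direct test (4.73%). STARD4 fell after ZBTB11 knockdown and did not pass the other tests (2.39%). Not called after ZBTB11 knockdown, INSIG1 and FADS2 rose after SET knockdown and were lower directly (3.23%). ELOVL6, also not called after the former, fell after SET knockdown and was higher directly (4.57%). CYP51A1 rose and SREBF1 fell after SET knockdown without passing the other tests (4.28% and 3.9%). SREBF2, MVK, NSDHL, EBP, SC5D and ACACA did not pass any of the 3 tests (59.9%). A pattern held by 1 gene is 3.45% of the 29, so those of PMVK, STARD4, ELOVL6, CYP51A1 and SREBF1 were near the share of all genes.

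**Figure D2:**
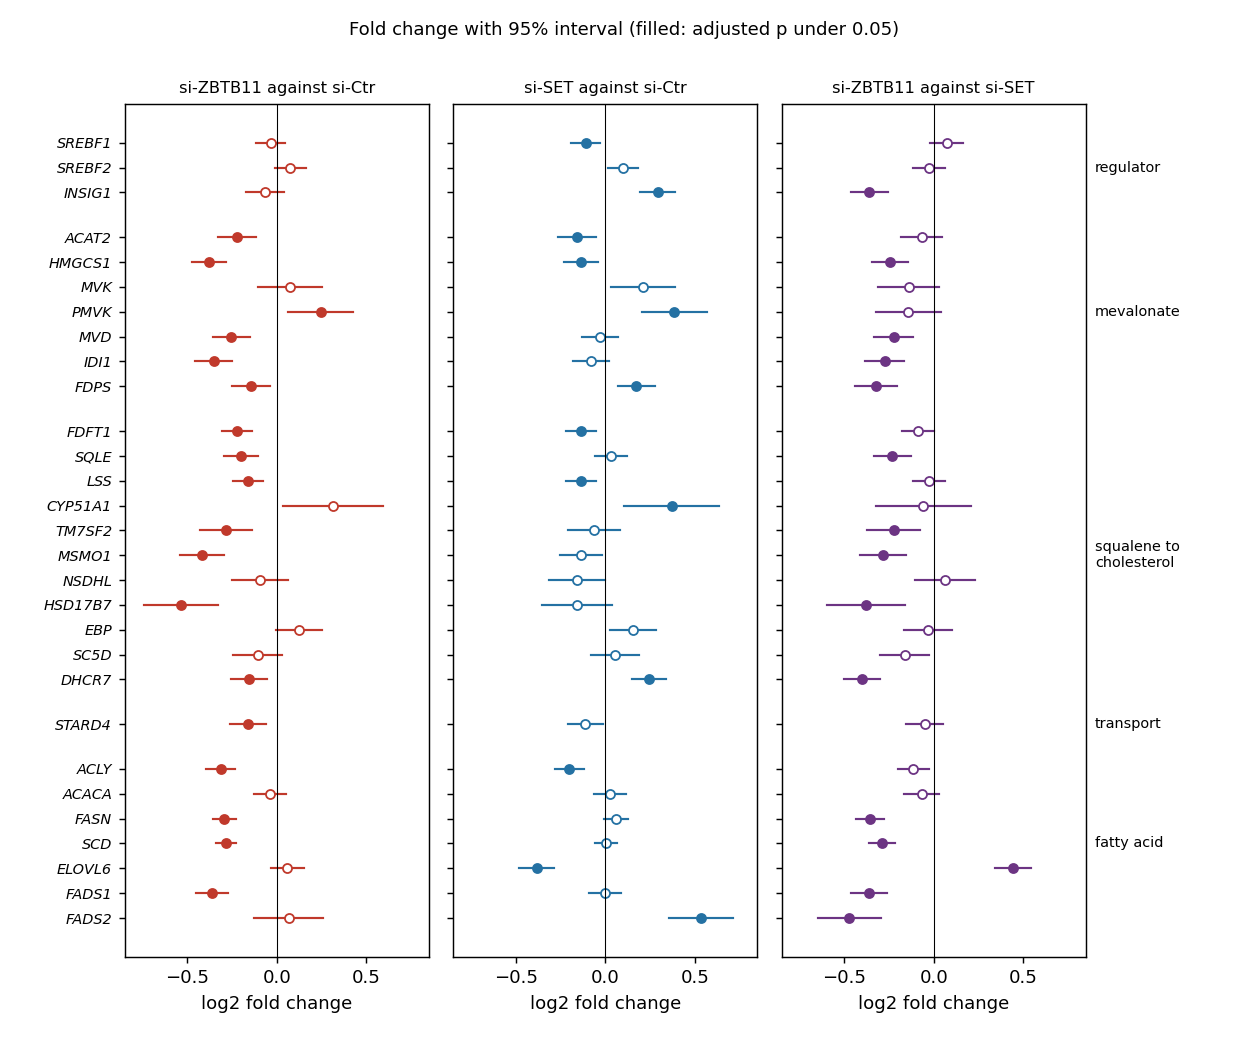
Log2 fold change of each gene with its 95% interval in the 3 comparisons, by role, where filled points have an adjusted p under 0.05. Filled points in the left panel lie below 0 for 17 genes and above 0 for PMVK, while the middle panel has 6 above and 7 below.

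Of the regulators, the transcripts of the SREBPs themselves stayed close to si-Ctr. SREBF1, which encodes SREBP1, had 315 and 324 CPM in si-Ctr, 300.5 and 322 in si-ZBTB11 and 286 and 307 in si-SET. The si-ZBTB11 values overlapped those of si-Ctr (-0.035 ± 0.040 (SE), 95% interval -0.11 to 0.045) and the si-SET values lay below them (-0.11 ± 0.041, adjusted p = 0.0352). SREBF2, which encodes SREBP2, had log2 fold changes of 0.074 (95% interval -0.013 to 0.16) after ZBTB11 knockdown and 0.10 (0.014 to 0.19, adjusted p = 0.0748) after SET knockdown. INSIG1, the retention protein and sterol-responsive target, had 125 and 112 CPM in si-Ctr, 116 and 109.5 in si-ZBTB11 and 145 and 145 in si-SET. Its si-SET values lay above the 4 others, and those of si-ZBTB11 and si-Ctr overlapped. INSIG1 rose after SET knockdown (0.29 ± 0.050, adjusted p = 1.47e-06), did not pass the test after ZBTB11 knockdown (-0.067, 95% interval -0.17 to 0.038) and was lower in si-ZBTB11 than in si-SET (-0.36 ± 0.051, adjusted p = 2.91e-06). Without si-Ctr replicate 1, the adjusted p of SREBF1 after SET knockdown was 0.0828, and it was 0.278 without si-Ctr replicate 2 and 0.391 without si-SET replicate 1. The fold change of SREBF1 after ZBTB11 knockdown, not past the test, was 0.016 without si-ZBTB11 replicate 1.

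The mevalonate genes build the isoprenoid precursor of sterols from acetyl-CoA. HMGCS1, the cytosolic HMG-CoA synthase at chr5:43287470-43313512, had 169.6 and 158 CPM in si-Ctr, 128 and 124 in si-ZBTB11 and 149 and 149 in si-SET. The 3 groups did not overlap, with si-ZBTB11 lowest. HMGCS1 fell to 0.768 of its si-Ctr level after ZBTB11 knockdown (log2 fold change -0.38 ± 0.049, adjusted p = 4.02e-10) and less after SET knockdown (-0.14 ± 0.047, adjusted p = 0.0216), and the direct difference was -0.25 ± 0.050 (adjusted p = 0.00047). The fall after SET knockdown was -0.083 without si-Ctr replicate 1 (adjusted p = 0.389) and had adjusted p of 0.0618 and 0.0621 without si-SET replicate 1 and si-SET replicate 2. IDI1, the isopentenyl diphosphate isomerase, had 138 and 129 CPM in si-Ctr, 107 and 102 in si-ZBTB11 and 122 and 130.3 in si-SET. The si-ZBTB11 values lay below the rest and the si-SET values overlapped those of si-Ctr, with log2 fold changes of -0.35 ± 0.052 (adjusted p = 2.95e-08) and -0.080 ± 0.050 (adjusted p = 0.244). MVD, which decarboxylates mevalonate diphosphate, showed the same order at 121 and 118, 99.3 and 101 and 115 and 118 CPM in si-Ctr, si-ZBTB11 and si-SET. Its log2 fold change was -0.25 ± 0.053 after ZBTB11 knockdown (adjusted p = 8.73e-05) and -0.031 ± 0.051 after SET knockdown (adjusted p = 0.706). The direct differences of IDI1 and MVD were -0.27 ± 0.054 and -0.22 ± 0.053 (adjusted p = 0.000309 and 0.00259).

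FDPS, which makes farnesyl diphosphate, had 106 and 109.5 CPM in si-Ctr, 97.4 and 97.0 in si-ZBTB11 and 114 and 129 in si-SET. The groups lay on opposite sides of si-Ctr and did not overlap. FDPS fell after ZBTB11 knockdown (-0.15 ± 0.054, adjusted p = 0.0405) and rose after SET knockdown (0.17 ± 0.053, adjusted p = 0.00815), with a direct difference of -0.32 ± 0.057 (adjusted p = 0.000102). The fall was past the test in 5 of the 12 analyses run for each gene (the main one, 7 other choices and 4 libraries left out in turn) and was lost whichever library was left out, at adjusted p between 0.0814 and 0.258. Without si-SET replicate 2 the rise was 0.080 (adjusted p = 0.405), and without si-Ctr replicate 1 its adjusted p was 0.115.

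ACAT2, the acetoacetyl-CoA thiolase, had 120.5 and 112 CPM in si-Ctr, 103 and 95.6 in si-ZBTB11 and 102 and 106 in si-SET. Both knockdowns lay below si-Ctr and overlapped each other, at -0.22 ± 0.054 (adjusted p = 0.000854) and -0.16 ± 0.053 (adjusted p = 0.0171). Without si-Ctr replicate 1 these values were -0.17 (adjusted p = 0.0799) and -0.10 (adjusted p = 0.330), and the second was also lost without si-SET replicate 1 (adjusted p = 0.121). PMVK, the phosphomevalonate kinase, had 27.2 and 25.8 CPM in si-Ctr, 32.4 and 30.3 in si-ZBTB11 and 31.9 and 37.3 in si-SET. Both knockdowns lay above si-Ctr, and PMVK rose by 0.24 ± 0.092 (adjusted p = 0.0446) and 0.39 ± 0.092 (adjusted p = 0.000534). The rise after ZBTB11 knockdown was past the test in 4 of the 12 analyses, and the rise after SET knockdown was lost without si-SET replicate 2 (0.27, adjusted p = 0.0753). MVK, the mevalonate kinase, did not pass the test at 0.072 after ZBTB11 knockdown (95% interval -0.11 to 0.25) and 0.21 after SET knockdown (0.033 to 0.39), and it passed the latter without si-Ctr replicate 1 (0.31, adjusted p = 0.0328).

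From squalene onward, the enzymes close and trim the sterol rings. Its lowest fold changes after ZBTB11 knockdown were those of HSD17B7 and MSMO1, which act in the removal of the methyl groups at carbon 4. HSD17B7, the 3-ketosteroid reductase of the complex, had 26.9 and 25.3 CPM in si-Ctr, 18.8 and 17.1 in si-ZBTB11 and 22.6 and 24.2 in si-SET. The si-ZBTB11 values were the lowest, at 0.689 of si-Ctr (log2 fold change -0.54 ± 0.10, adjusted p = 2.68e-05), beside -0.16 ± 0.099 after SET knockdown (adjusted p = 0.242). Its direct difference of -0.38 ± 0.11 (adjusted p = 0.0111) was lost without si-SET replicate 2 (adjusted p = 0.0949) and without si-ZBTB11 replicate 2 (adjusted p = 0.103). MSMO1, the sterol-C4 oxidase at chr4:165327667-165343164, had 81.9 and 79.4 CPM in si-Ctr, 58.8 and 61.7 in si-ZBTB11 and 72.4 and 74.4 in si-SET. The 3 groups did not overlap. MSMO1 fell to 0.748 of si-Ctr after ZBTB11 knockdown (log2 fold change -0.42 ± 0.062, adjusted p = 3.50e-08) and had -0.14 ± 0.060 after SET knockdown (adjusted p = 0.0827), with a direct difference of -0.28 ± 0.063 (adjusted p = 0.0014). NSDHL, the dehydrogenase of the same complex, had overlapping values in the 3 groups and log2 fold changes of -0.095 (95% interval -0.25 to 0.063) and -0.16 (adjusted p = 0.134). Without si-Ctr replicate 2 the latter passed the test (-0.29, adjusted p = 0.0151).

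TM7SF2, the sterol delta-14 reductase, had 48.6 and 58.8 CPM in si-Ctr, 42.6 and 45.4 in si-ZBTB11 and 49.4 and 53.4 in si-SET. Its si-Ctr libraries differed from each other by more than those of most members, and the si-ZBTB11 values lay below the 4 others. TM7SF2 fell after ZBTB11 knockdown (-0.28 ± 0.074, adjusted p = 0.00226), had -0.062 ± 0.074 after SET knockdown (adjusted p = 0.582) and differed directly by -0.22 ± 0.073 (adjusted p = 0.0299). Without si-Ctr replicate 2 the fall was -0.14 (adjusted p = 0.359) and the value after SET knockdown, not past the test, was 0.081. Without si-ZBTB11 replicate 1 the fall had an adjusted p of 0.0523 and the direct difference was -0.17 (adjusted p = 0.233), and without si-SET replicate 2 the direct difference was also -0.17 (adjusted p = 0.238). The end of VPS51, a vesicle tethering gene on the same strand, overlaps the start of TM7SF2 by 18 exon bases. VPS51 fell from 102 and 106 CPM in si-Ctr to 35.7 and 34.4 in si-ZBTB11 and was at 104 and 107 in si-SET, with log2 fold changes of -1.57 ± 0.065 (adjusted p = 1.77e-40) and 0.021 ± 0.053, and its part in the counts of TM7SF2 was not tested.

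DHCR7, the reductase that makes cholesterol in the last step, had 139 and 135 CPM in si-Ctr, 121 and 125 in si-ZBTB11 and 166 and 159 in si-SET. The groups lay on opposite sides of si-Ctr without overlap. DHCR7 rose after SET knockdown (0.24 ± 0.047, adjusted p = 2.07e-05), fell after ZBTB11 knockdown (-0.16 ± 0.050, adjusted p = 0.0158) and was lower in si-ZBTB11 than in si-SET (-0.40 ± 0.050, adjusted p = 3.17e-07). The fall was lost without si-Ctr replicate 1 (adjusted p = 0.163) and without si-ZBTB11 replicate 1 (adjusted p = 0.121). SQLE, the squalene epoxidase, had 183 and 172 CPM in si-Ctr, 163 and 146 in si-ZBTB11 and 182 and 181 in si-SET. The si-ZBTB11 values lay below the rest (-0.20 ± 0.048, adjusted p = 0.000759), those of si-SET lay within si-Ctr (0.031 ± 0.045), and the direct difference was -0.23 ± 0.051 (adjusted p = 0.00115). Without si-ZBTB11 replicate 2 the fall was -0.12 (adjusted p = 0.107) and the direct difference -0.15 (adjusted p = 0.0759), and without si-Ctr replicate 1 the fall had an adjusted p of 0.0713.

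FDFT1, the squalene synthase, and LSS, the lanosterol synthase, fell after either knockdown. FDFT1 had 243 and 236 CPM in si-Ctr, 204 and 207 in si-ZBTB11 and 217 and 219 in si-SET. LSS had 243 and 247, 218 and 219.7 and 222 and 224 CPM. In both genes every knockdown library lay below both si-Ctr libraries. The log2 fold changes of FDFT1 were -0.22 ± 0.043 (adjusted p = 2.57e-05) and -0.14 ± 0.042 (adjusted p = 0.0106), and those of LSS were -0.16 ± 0.043 (adjusted p = 0.00251) and -0.13 ± 0.042 (adjusted p = 0.0102). The direct differences were -0.088 for FDFT1 (95% interval -0.18 to 0.0035) and -0.027 for LSS (-0.12 to 0.063). Without si-Ctr replicate 1 the values after SET knockdown had adjusted p of 0.164 for FDFT1 and 0.0520 for LSS, and without si-Ctr replicate 2 LSS had 0.0518 after ZBTB11 knockdown and 0.127 after SET knockdown.

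CYP51A1, the lanosterol demethylase, had 9.83 and 12.6 CPM in si-Ctr, 15.1 and 12.8 in si-ZBTB11 and 13.8 and 15.2 in si-SET, the lowest level per library in the set. It rose after SET knockdown (0.37 ± 0.13, adjusted p = 0.0286) and did not pass the test after ZBTB11 knockdown (0.31 ± 0.14, adjusted p = 0.102). The former was 0.20 without si-Ctr replicate 1 (adjusted p = 0.427) and 0.30 without si-SET replicate 2 (adjusted p = 0.174), and the latter was 0.50 without si-Ctr replicate 2 (adjusted p = 0.0308) and 0.43 without si-ZBTB11 replicate 2 (adjusted p = 0.0420). CYP51A1 shares 68.2% of its exon bases with another GENCODE gene on the same strand that is not in the count table, and EBP, the sterol isomerase, shares 36.4% with such a gene. How such reads were counted is not given in the sources used here, so the counts of CYP51A1 and EBP are uncertain. EBP had 0.12 (95% interval -0.0049 to 0.25) after ZBTB11 knockdown and 0.16 (0.025 to 0.29, adjusted p = 0.0679) after SET knockdown. SC5D, the lathosterol oxidase, had -0.11 (-0.24 to 0.028) and 0.054 (-0.082 to 0.19).

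STARD4, a carrier of sterol between membranes, had 130.4 and 134 CPM in si-Ctr, 119 and 118 in si-ZBTB11 and 124 and 121 in si-SET. The 3 groups did not overlap, although they lay close. It fell after ZBTB11 knockdown (-0.16 ± 0.050, adjusted p = 0.0133) and had -0.11 ± 0.050 after SET knockdown (adjusted p = 0.0856), with a direct difference of -0.051 (95% interval -0.15 to 0.054). The fall was lost without si-Ctr replicate 2 (adjusted p = 0.142) and without si-ZBTB11 replicate 2 (adjusted p = 0.0569).

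The smallest adjusted p after ZBTB11 knockdown among the 29 belonged to fatty acid genes, SCD, FASN and FADS1. SCD at chr10:100347233-100364826 had 49546 and 46941 counts in si-Ctr, 39235 and 39318 in si-ZBTB11 and 48831 and 49208 in si-SET. Scaled to library size this was 2833 and 2806 CPM, 2275 and 2344 CPM and 2759 and 2892 CPM. The si-ZBTB11 values lay below all others, while those of si-SET lay on either side of si-Ctr. SCD fell to 0.820 of its si-Ctr level after ZBTB11 knockdown (log2 fold change -0.29 ± 0.028, adjusted p = 7.56e-15), and after SET knockdown the difference was 0.0033 with a 95% interval of -0.058 to 0.065. FASN had 969.5 and 989.7 CPM in si-Ctr, 779 and 819 in si-ZBTB11 and 1020 and 1023 in si-SET. It fell after ZBTB11 knockdown (-0.29 ± 0.033, adjusted p = 4.08e-12), and its si-SET values lay slightly above si-Ctr without passing the test (0.061 ± 0.034, adjusted p = 0.183). FADS1, the delta-5 desaturase of polyunsaturated fatty acids, had 195 and 195 CPM in si-Ctr, 154 and 148 in si-ZBTB11 and 204 and 185 in si-SET. Its si-SET values lay on either side of si-Ctr, and it fell after ZBTB11 knockdown (-0.36 ± 0.046, adjusted p = 2.05e-10). The direct differences were -0.29 ± 0.035 for SCD, -0.35 ± 0.038 for FASN and -0.36 ± 0.050 for FADS1 (adjusted p = 2.20e-07, 2.07e-08 and 2.23e-06).

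ACLY had 315 and 314 CPM in si-Ctr, 254 and 252 in si-ZBTB11 and 274 and 274 in si-SET, with little spread between replicates and no overlap between groups. It fell after both knockdowns, with log2 fold changes of -0.31 ± 0.040 (adjusted p = 4.77e-10) and -0.20 ± 0.040 (adjusted p = 3.64e-05), and the direct difference was -0.11 ± 0.043 (adjusted p = 0.0637). The direct difference passed the test with library size only (adjusted p = 0.0422) and with all 6 libraries in one fit (adjusted p = 0.0409). ACACA, the acetyl-CoA carboxylase that commits acetyl-CoA to fatty acids, did not pass a test, at -0.038 (95% interval -0.13 to 0.054) after ZBTB11 knockdown and 0.028 (-0.061 to 0.12) after SET knockdown.

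ELOVL6, the elongase that turns palmitate into stearate, had 155 and 152 CPM in si-Ctr, 158 and 161 in si-ZBTB11 and 115 and 120.1 in si-SET. The si-SET values lay far below the 4 others. ELOVL6 fell to 0.766 of si-Ctr after SET knockdown (log2 fold change -0.38 ± 0.049, adjusted p = 2.03e-10), did not pass the test after ZBTB11 knockdown (0.059, 95% interval -0.035 to 0.15) and was the member higher in si-ZBTB11 than in si-SET (0.44 ± 0.050, adjusted p = 4.76e-08). FADS2, the delta-6 desaturase, had 25.0 and 24.2 CPM in si-Ctr, 26.0 and 25.5 in si-ZBTB11 and 36.0 and 35.3 in si-SET. Its si-SET values lay above the rest, at 1.45 of si-Ctr. FADS2 rose after SET knockdown (0.54 ± 0.091, adjusted p = 1.22e-06), had 0.066 (95% interval -0.13 to 0.26) after ZBTB11 knockdown and differed directly by -0.47 ± 0.086 (adjusted p = 0.000142). FADS1 at chr11:61799627-61829318 on the minus strand and FADS2 at chr11:61792980-61867354 on the plus strand overlap and share 490 exon bases, while their log2 fold changes were -0.36 and 0.066 after ZBTB11 knockdown and -0.0034 and 0.54 after SET knockdown. The strand setting of the authors' counting is not given in the sources used here, so reads from the shared bases cannot be told apart.

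**Figure D3:**
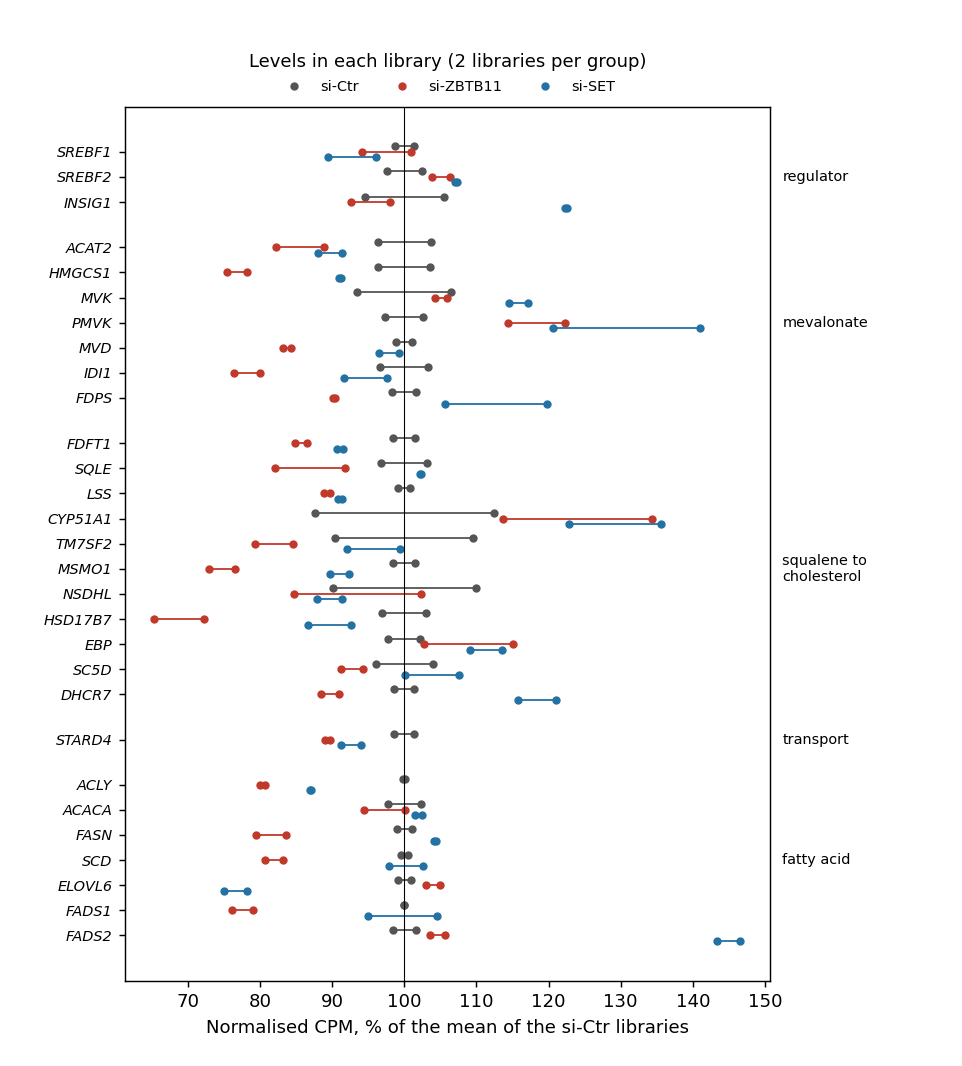
Level of each gene in each of the 6 libraries, as % of the mean of the si-Ctr libraries on the x axis, with a line joining the 2 libraries of a group. The si-ZBTB11 points lie left of both si-Ctr points for genes such as HSD17B7, MSMO1 and SCD, and the si-SET points lie apart for ELOVL6 and FADS2.

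Sequence shared with other genes bears on other members too. HSD17B7 shares 22.6% of its 31-base words with other annotated genes, most of them with the pseudogene HSD17B7P2 (19.1%), and SCD shares 12.9% and FDPS 10.9%. On the opposite strand, annotated genes cover 37.7% of the exon bases of HMGCS1, 22.2% of ACAT2 and 18.6% of FDPS. Without the strand setting, the source of reads there cannot be told apart. Matches in annotated 3′ UTRs to bases 2 to 8 of the siRNA guides were counted as well, over 13272 tested genes with a 3′ UTR. The match CAGTCAT of the first oligo against ZBTB11 was in 6 of the 29 members (15.02% of the tested genes). They were HMGCS1, LSS, SC5D, ACACA, SCD and FADS1, and 4 of these 6 are among the 17 that fell. Of all 29 members, 58.6% fell, and the share of holders that fell over all genes was not taken. TGTACAC of the other oligo was in 4 members (11.7%), 3 of them among the 17, and TGAAGAT of the si-SET oligo was in 4 (20.5%). These were INSIG1, which rose after SET knockdown, HMGCS1 and ELOVL6, which fell, and SC5D, which did not pass the test. A match is a description of letters, and its part in the results was not tested.

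The other genes of the pathway were taken from 3 lists, whose names were chosen with earlier results of these data known. Of 10 genes for the escort, processing and turnover of SREBP, all tested, 4 fell and 2 rose after ZBTB11 knockdown (all genes tested: 10.5% and 9.94%). After SET knockdown 2 rose and 0 fell (all genes: 13.1% and 13.9%), and 3 were lower and 0 higher in si-ZBTB11 than in si-SET (8.58% and 9.61%). MBTPS2, the site-2 protease that releases SREBP, had 62.7 and 58.5 CPM in si-Ctr, 34.2 and 36.7 in si-ZBTB11 and 66.3 and 59.8 in si-SET. It fell to well below both other groups after ZBTB11 knockdown (-0.77 ± 0.073, adjusted p = 7.59e-16), with a direct difference of -0.83 ± 0.074 (adjusted p = 3.83e-10). FAF2 and ERLIN2, which act in the degradation of proteins of the endoplasmic reticulum, fell, with log2 fold changes of -0.19 ± 0.047 and -0.29 ± 0.088 (adjusted p = 0.00119 and 0.0115), as did INSIG2, a second retention protein named after its value was seen (-0.28 ± 0.091, adjusted p = 0.0164). The genes lower in the direct comparison were MBTPS2, ERLIN2 and ERLIN1. MBTPS1, the site-1 protease, and ERLIN1 rose by 0.12 ± 0.041 and 0.19 ± 0.069 after ZBTB11 knockdown and by 0.12 ± 0.041 and 0.48 ± 0.068 after SET knockdown. The median log2 fold change of the list was -0.010 after ZBTB11 knockdown and 0.072 after SET knockdown.

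Of 12 genes for the isoprenoid branch and sterol handling, 1 fell and 1 rose after ZBTB11 knockdown, 1 fell and 2 rose after SET knockdown, and 2 were lower and 2 higher in the direct comparison. As shares of the list these were 8.33% and 8.33%, 8.33% and 16.7%, and 16.7% and 16.7%, beside 10.5% and 9.94%, 13.9% and 13.1%, and 8.58% and 9.61% of all genes tested, so the counts after either knockdown were near the share of all genes. SOAT1, which esterifies cholesterol for storage, had 77.9 and 73.5 CPM in si-Ctr, 41.8 and 42.0 in si-ZBTB11 and 73.4 and 65.1 in si-SET. It fell after ZBTB11 knockdown (-0.85 ± 0.067, adjusted p = 2.90e-20) by more than any of the 29 members. NUS1, a subunit of the enzyme that makes dolichol precursors, rose after both knockdowns (0.17 ± 0.053 and 0.33 ± 0.051). After SET knockdown OSBP, an oxysterol-binding lipid exchanger, rose by 0.17 ± 0.051 and STARD3, a sterol carrier of late endosomes, fell (log2 fold change -0.37 ± 0.078). In the direct comparison SOAT1 and NUS1 were lower in si-ZBTB11 (-0.72 and -0.16), and STARD3 and DHDDS, the partner of NUS1, named after its value was seen, were higher (0.37 and 0.22).

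The third list held 22 genes, mainly for acetyl-CoA supply, fatty acid elongation and activation, and also LPIN1 and PCYT2 of glycerolipid synthesis. Of the 22, 7 fell and 2 rose after ZBTB11 knockdown (31.8% and 9.09%, beside 10.5% and 9.94% of all genes tested). After SET knockdown 10 fell and 2 rose (45.5% and 9.09%, beside 13.9% and 13.1%), and 5 were higher and 0 lower in si-ZBTB11 than in si-SET (22.7% and 0%, beside 9.61% and 8.58%). After ZBTB11 knockdown the falls with the smallest adjusted p were in SLC25A1, the mitochondrial citrate carrier (-0.26 ± 0.049), LPIN1, a phosphatidate phosphatase (-0.19 ± 0.042), and PCYT2, of phosphatidylethanolamine synthesis (-0.32 ± 0.075), with adjusted p of 1.77e-05, 0.00029 and 0.000709. After SET knockdown they were in LPIN1 (-0.32 ± 0.043), PCYT2 (-0.50 ± 0.078) and ACSL1, which activates long-chain fatty acids (-0.52 ± 0.093), with adjusted p of 1.22e-09, 1.95e-07 and 3.99e-06. ME1, the cytosolic malic enzyme that supplies NADPH, rose after both knockdowns (0.64 ± 0.13 and 0.84 ± 0.13, adjusted p = 9.03e-05 and 3.89e-08), as did MID1IP1, an activator of acetyl-CoA carboxylase (0.22 ± 0.082 and 0.26 ± 0.082). The 5 genes higher in si-ZBTB11 than in si-SET were SCD5, ELOVL7, ACSL1, ACSL4 and LPIN1 (0.61, 0.35, 0.36, 0.16 and 0.13), of which SCD5, ELOVL7 and ACSL4 were named after their values were seen. The median of the list was -0.065 after ZBTB11 knockdown and -0.099 after SET knockdown.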

How the data were processed

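Total RNA of NCI-H1299 cells was made into libraries with the NEBNext Ultra RNA kit and sequenced as paired ends. The authors aligned the reads to hg38 with HISAT2 2.0.5 and counted them with featureCounts 1.5.0-p3, and the deposited files hold raw counts of 19934 gene symbols per library, not normalized. The strand option, how reads with several matches were handled and the annotation release are not given in the sources used here.

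Groups and replicate numbers came from the sample titles. The si-ZBTB11, si-SET and si-Ctr libraries were compared in pairs with the two-sided quasi-likelihood test of edgeR 4.0.16 in R 4.3.3, with TMM scaling, the default filter on low counts and Benjamini-Hochberg adjustment over all genes tested, and a gene was called at an adjusted p under 0.05. Each adjusted p in the report comes from this fit unless another tool, another setting or a left-out library is named. SEs are the log2 fold change divided by the square root of the F statistic. The scripts were tested on simulated data. Gene models and shared 31-base words came from GENCODE version 44, and promoters from RefSeq GRCh38.p14. All 29 symbols matched both the tables and GENCODE.

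Replicates differed by more than sampling noise, with a chi-square per degree of freedom of 2.34 in si-Ctr, 2.71 in si-ZBTB11 and 2.68 in si-SET. With 2 libraries per group an exact permutation test cannot go below p = 0.333, so every p-value printed is from a model over all genes. The members and lists were chosen with earlier results of these data known. All 29 members are named, as are at most the 3 genes per direction with the smallest adjusted p against si-Ctr in each other list, and INSIG2, DHDDS, SCD5, ELOVL7 and ACSL4 were named after their values were seen. The alternatives were DESeq2's size factors, library size only, the DESeq2 1.42.0 Wald test, a minimum of 1 count in any library or of 10 in each, a joint fit of the 6 libraries, a replicate block, the study's criteria, and each library left out in turn. Other synthesis genes were not analysed here.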

Additional observations from a re-analysis of the deposited data

Results flagged for a closer look

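In 15 of the 29 genes the effect of ZBTB11 knockdown differed from that of SET knockdown by the direct test between the knockdown libraries (quasi-likelihood test of edgeR, Benjamini-Hochberg adjustment over all 13549 genes tested). Of all genes tested, 18.2% differed by the same test. The siRNA targets fell by unlike amounts against si-Ctr, with log2 fold changes of -0.86 for ZBTB11 and -3.48 for SET. The part of this in the differences was not tested. The difference, si-ZBTB11 minus si-SET on the log2 scale, was -0.36 for INSIG1, -0.25 for HMGCS1, -0.22 for MVD, -0.27 for IDI1 and -0.32 for FDPS. It was -0.23 for SQLE, -0.22 for TM7SF2, -0.28 for MSMO1, -0.38 for HSD17B7 and -0.40 for DHCR7. Among the fatty acid genes it was -0.35 for FASN, -0.29 for SCD, -0.36 for FADS1, -0.47 for FADS2 and 0.44 for ELOVL6, the gene higher in si-ZBTB11.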

How the results depend on the processing

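The counts of members called were compared across alternatives. The 17 members lower after ZBTB11 knockdown became 13 with the DESeq2 Wald test and 13 to 14 with a library left out, and 10 were called in all 12 settings. The 1 member higher (PMVK) became 0 with library size only, the DESeq2 Wald test, every gene with at least 1 count and all 6 libraries in one fit, and 0 to 1 with a library left out, where the 1 was CYP51A1 and not PMVK. The 6 members higher after SET knockdown ranged from 3 (without si-SET replicate 2) to 6 with a library left out, and 3 were called in all settings. The 7 lower became 3 with the DESeq2 Wald test and ranged from 2 (without si-Ctr replicate 1) to 6, and 2 were called in all settings. In the direct comparison the 14 lower were 12 to 14 with a library left out, 12 with DESeq2 and 15, with ACLY added, with library size only or all 6 libraries in one fit, 11 were called in all settings, and ELOVL6 remained the 1 higher in each. Under the study's criteria all 6 counts became 0. Over all genes, DESeq2 called 1393 in place of 2771 after ZBTB11 knockdown, 1925 in place of 3667 after SET knockdown and 1306 in place of 2465 in the direct comparison, and leaving out a library gave as few as 1794, 2411 and 1799.

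Same-numbered libraries did not deviate together (correlations 0.0114, 0.0257 and 0.0125), so the numbers were not taken as pairs. With a replicate block, 17 members were lower and 1 higher after ZBTB11 knockdown, 9 higher and 7 lower after SET knockdown, and 15 lower (ACLY added, adjusted p = 0.0272) and 1 higher directly. Over all genes the block called 3155 in place of 2771, 4103 in place of 3667 and 2996 in place of 2465. The cause of these changes was not tested.

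Members not past the test changed sign when a library was left out (named in parentheses). After ZBTB11 knockdown the log2 fold change then ran from -0.088 to 0.016 for SREBF1 (si-ZBTB11 replicate 1), -0.14 to 0.016 for INSIG1 (si-Ctr replicate 1), -0.018 to 0.17 for MVK (si-Ctr replicate 2), -0.24 to 0.059 for NSDHL (si-Ctr replicate 1, and 0.032 without si-ZBTB11 replicate 2) and -0.083 to 0.0046 for ACACA (si-ZBTB11 replicate 1). After SET knockdown it ran from -0.014 to 0.078 for SQLE, -0.20 to 0.081 for TM7SF2, -0.0015 to 0.11 for SC5D and -0.0051 to 0.061 for ACACA (si-Ctr replicate 2 in these 4), -0.032 to 0.033 for SCD (si-SET replicate 2, and -0.0035 without si-Ctr replicate 2) and -0.078 to 0.063 for FADS1 (si-SET replicate 2), and SCD was -0.0045 with library size only. Directly it ran from -0.18 to 0.058 for CYP51A1 (si-ZBTB11 replicate 2, and 0.016 without si-SET replicate 2), -0.076 to 0.19 for NSDHL (si-ZBTB11 replicate 1) and -0.11 to 0.049 for EBP (si-ZBTB11 replicate 2). For the members of lowest count the test is coarse: the SEs of CYP51A1 and HSD17B7 after ZBTB11 knockdown were 0.14 and 0.10, beside 0.028 for SCD.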
